A study of Mus musculus with 2 samples.

Results

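Type I interferon responding cells are described here among CD8+ T cells from mouse spleen. The name follows the genes that chose them, and which interferon acted on these cells was not tested. They were chosen by their own transcripts: a cell was taken when at least 2 of 6 genes, Ifit1, Ifit3, Ifit3b, Rsad2, Usp18 and Isg15, had a unique molecular identifier (UMI, 1 captured transcript molecule). This took 147 of 10338 cells, a share of 1.42% (exact Clopper-Pearson 95% interval 1.20 to 1.67). They were set against the 9099 cells in which none of the 6 genes had a UMI, and the 1092 cells with exactly 1 of them entered neither side. The 6 genes chose the cells, so their own levels are a description. These 6 genes were left out of every ranking and list below. They were also left out of library totals, except for CPM of the 6 genes themselves and percents of a cell's UMIs.

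All cells came from 1 single-cell RNA library, to which 1 T cell receptor (TCR) library of the same sort was joined by cell barcode. GD2TIF cells are T cells of Cas9-transgenic mice that were activated and infected with a retrovirus. The virus was directed against Bcor and Zc3h12a and delivered 14g2a, a chimeric antigen receptor for the ganglioside GD2. Immunocompetent C57BL/6 mice received 1000000 cells each. Splenic CD8+Thy1.1+ cells were sorted 2 months later, and how many mice gave them is not stated in the sources used here. Both sides of each comparison therefore had the same virus and came from the same sort. With 1 library and no other group, cells were not treated as replicates, no test was run, and all 95% intervals cover counting error only.

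Type I interferons, the interferon alpha and beta family, bind the receptor pair Ifnar1 and Ifnar2 and act through the kinases Jak1 and Tyk2. The complex ISGF3, to which Stat2 and Irf9 belong, then binds interferon-stimulated response elements in promoters of antiviral genes. Interferon gamma acts through a receptor of its own and turns on an overlapping set in which guanylate-binding proteins and immunity-related GTPases are prominent. In T cells, type I interferon is known both to support expansion during infection and, where it lasts, to accompany loss of function.

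The 6 genes encode well known products of this response. Ifit1, Ifit3 and Ifit3b encode tetratricopeptide proteins, of which Ifit1 binds foreign RNA ends, and they stand together on chromosome 19 of the mouse build GRCm38.p6 at chr19:34640889-34650009, chr19:34583119-34588982 and chr19:34607530-34613403. Rsad2 (chr12:26442743-26456452) encodes viperin, an enzyme that makes a chain-terminating nucleotide, and Isg15 (chr4:156199424-156200818) encodes a ubiquitin-like modifier. Usp18 (chr6:121245906-121270917) encodes the protease that removes this modifier and also dampens signalling at the receptor.

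Promoter sequence shows what the rule genes share outside the RNA. RefSeq promoters (GRCm38.p6, 250 bases before to 50 after each gene's start) were searched for the core of the response element on both strands, written as TTTC, 2 bases of any kind and TTTC again, or in reverse complement as GAAA, 2 bases of any kind and GAAA. The motif was found in 5 of the 5 rule genes with an entry, and Usp18 had none in the table. Of all 27025 genes with a promoter, 3.99% held it. The windows below are 100 bases on the gene's own strand, 5′ to 3′, and show where each motif lies, with its letters in capitals.
Ifit1: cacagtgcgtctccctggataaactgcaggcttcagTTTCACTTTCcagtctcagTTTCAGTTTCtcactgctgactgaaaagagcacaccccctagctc
Ifit3: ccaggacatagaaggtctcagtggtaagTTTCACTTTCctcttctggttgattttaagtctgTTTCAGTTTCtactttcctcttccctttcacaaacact
Ifit3b: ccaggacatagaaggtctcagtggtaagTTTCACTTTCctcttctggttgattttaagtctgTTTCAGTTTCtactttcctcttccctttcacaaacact
Rsad2: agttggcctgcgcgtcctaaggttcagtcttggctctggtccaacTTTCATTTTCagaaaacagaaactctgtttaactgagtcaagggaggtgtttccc
Isg15: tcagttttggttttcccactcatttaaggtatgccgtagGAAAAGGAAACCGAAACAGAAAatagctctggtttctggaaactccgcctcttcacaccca

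These windows lie at chr19:34640749-34640848 on the plus strand for Ifit1, chr19:34583345-34583444 on the plus strand for Ifit3, chr19:34607741-34607840 on the plus strand for Ifit3b, chr12:26456518-26456617 on the minus strand for Rsad2 and chr4:156200836-156200935 on the minus strand for Isg15. For Ifit3 and Ifit3b the promoter table uses a start inside the gene interval given above, so these 2 windows lie within the intervals. Ifit1 holds 2 separate motifs that begin 104 and 85 bases before the gene's start (positions -104 and -85). Isg15 holds 3 overlapping ones at -78, -72 and -66, and Rsad2 holds 1 at -120. The printed windows of Ifit3 and Ifit3b are identical letter for letter, and their promoters match at 201 of 268 aligned bases (75%), and reads of these 2 close copies could have been split between them in counting. A match describes letters and is not evidence of binding in these cells.

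The same search over genes outside the rule gave more matches in the genes described below than in the table at large. Of 79 listed type I interferon genes, 64 had a promoter entry and 27 of those held the motif (42.2%, against 3.99% of all genes). The element TTCNNNGAA, the core of gamma-activated sites, was found in 11 of the 64 (17.2%, against 9.55% of all genes) and in 0 of the 5 rule promoters. Of 30 listed GTPase and interferon gamma response genes, 17 had an entry. Of those, 11 held the first motif (64.7%) and 8 held TTCNNNGAA (47.1%). Genes at least 2-fold higher in responding cells held TTCNNNGAA in 18 of 101 promoters (17.8%), against 8.10% for genes under 2-fold. Of 21 class I presentation genes, 18 had an entry and 5 held the first motif (27.8%). Of the 123 genes at least 2-fold higher in responding cells (1.53% of the genes with enough counts), 101 had an entry and 32 held this motif (31.7%), and of the 40 at least 3-fold higher, 32 had one and 18 held it (56.3%). Among genes at least 2-fold higher that stood in none of the interferon lists, 4 of 52 held it (7.69%). Bst2 and Gm12250, which were among the highest of these genes outside the rule, show the element in one orientation each.
Bst2: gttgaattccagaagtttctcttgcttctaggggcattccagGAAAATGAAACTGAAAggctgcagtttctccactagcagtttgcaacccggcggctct
Gm12250: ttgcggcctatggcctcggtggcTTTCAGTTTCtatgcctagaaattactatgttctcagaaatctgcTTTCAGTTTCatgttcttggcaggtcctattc

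The Bst2 window lies at chr8:71537545-71537644 on the minus strand, with motifs at -130 and -124 that overlap. The Gm12250 window lies at chr11:58183729-58183828 on the plus strand, with separate motifs at -91 and -46.

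Most responding cells sat at the edge of the rule. Exactly 2 of the 6 genes were detected in 101 cells, 3 in 20, 4 in 13, 5 in 9 and all 6 in 4. The commonest pair was Usp18 with Isg15, which made up 42 of the 101, followed by Ifit3 with Isg15 (18 cells) and Ifit3 with Usp18 (14). The 4 cells with all 6 genes had 4586, 4113, 3688 and 3111 UMIs in all. In them Ifit1 had 12, 5, 8 and 5 UMIs, Ifit3 had 2, 3, 6 and 17, and Isg15 had 9, 2, 5 and 6. In the same cells Rsad2 had 3, 1, 1 and 2 UMIs, Usp18 had 2, 2, 4 and 1, and Ifit3b had 1, 2, 1 and 2. So the 6 genes together took 0.632%, 0.365%, 0.678% and 1.06% of the transcripts of these cells.

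The 6 genes differed in how far they marked the same cells. Usp18 was the most widespread, with a UMI in 666 cells (6.44%), followed by Isg15 in 411 (3.98%), Ifit3 in 188 (1.82%), Ifit1 in 120 (1.16%), Rsad2 in 49 (0.474%) and Ifit3b in 41 (0.397%). The chosen cells held 60.4% of all Ifit3 UMIs, 61.1% of Ifit3b, 54% of Ifit1 and 52.4% of Rsad2. They held 38.2% of Isg15 UMIs and 20.4% of those of Usp18, so most Usp18 transcripts lay in cells where it was the only one of the 6. Within the responding cells, Isg15 had a UMI in 113 of 147 (76.9%), Usp18 in 102, Ifit3 in 79, Ifit1 in 46, Rsad2 in 22 and Ifit3b in 21.

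Cells with one of these genes held the others more often than cells without it. Among the 188 cells with Ifit3, 28.2% had Isg15 (21.9 to 35.2), against 3.53% of cells without Ifit3, and 15.4% had Ifit1, against 0.897%. Among the 666 cells with Usp18, 11.4% had Isg15 (9.10 to 14.1), against 3.46% of cells without Usp18. Cells with Ifit3 were deeper, at a median of 2445 UMIs against 1911. With every cell reduced at random to 1000 UMIs (thinned), 20.4% of Ifit3 cells had Isg15, against 2.10% of the others.

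Leaving each gene out of the rule gave a measure of it that did not choose the cells. In cells with at least 2 of the other 5 genes, Ifit3 stood at 400 counts per 1000000 UMIs (CPM), against 6.59 CPM in cells with none of the other 5, which is 60.8-fold (47.3 to 78.1; 108 cells chosen). Ifit1 was 45.8-fold higher in the same way (33.9 to 61.9), Ifit3b 48.7-fold (26.0 to 92.0), Rsad2 33.2-fold (18.4 to 59.1) and Isg15 30.5-fold (24.8 to 37.3). Usp18 was 11.0-fold higher (8.74 to 13.8), at 369 CPM in the chosen cells and 33.5 CPM in cells with none of the other 5. Each of the 6 was thus higher where the other 5 were detected, with the smallest ratio for Usp18.

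The rule depends on depth, because a deeper cell has more chances to show 2 of 6 rare transcripts. Responding cells had a median of 2749 UMIs and 1256 genes, against 1874 UMIs and 959 genes in cells with none of the 6. The share of responding cells was 0.463% (12 cells) in cells with 500 to 1456 UMIs, 0.967% (25) from 1457 to 1922, 1.01% (26) from 1923 to 2568 and 3.25% (84) above that, where the 4 ranges hold about equal numbers of cells. Thinned to 1000 UMIs, 51 of 9456 cells met the rule (0.539%, 0.402 to 0.709). The chosen side holds 460528 UMIs outside the 6 genes, against 19016605 in cells with none. A gene with 200 UMIs at an equal level on both sides would thus have 4.73 UMIs in the responding cells. For genes near that limit a fold below 1 rests on a few molecules.

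Both sides carried T cell transcripts, which bears on the label. All 147 responding cells and 99.6% of cells with none of the 6 had at least 2 of 10 T cell markers. The CD8 chains Cd8a and Cd8b1 stood at 278 and 430 CPM in responding cells, against 203 and 399 CPM in cells with none. Of the beta chain genes, Trbc2 was at 3652 CPM in responding cells and 3605 CPM in cells with none, and Trbc1 was at 1949.9 CPM in responding cells and 2693 CPM in cells with none. A TCR barcode was found for 70 of the 147 responding cells (47.6%, 39.3 to 56.0), against 44.2% of cells with none.

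Markers of other cells that can sit in a spleen sort were counted beside this. At least 2 of 8 B cell markers were found in 21.8% of responding cells, against 13.7% of cells with none, and after thinning in 4.17% and 5.30%. Cd79a, Ms4a1 and Pax5 had 0 UMIs in responding cells, but they were rare throughout, with 78 Cd79a UMIs in the 9099 cells with none. Cd79b had 2 UMIs in responding cells. After thinning, Igkc was found in 8.33% of responding cells and 4.54% of cells with none. Ighm was found in 25.7% and 31.9%, and Ighd in 5.56% and 8.27%. At least 2 of the plasmacytoid dendritic cell markers were found in 15.0% of responding cells, against 4.90% of cells with none, and after thinning in 4.17% and 1.34%. Bst2 and Irf8, which are themselves interferon-inducible, are in that list. At least 2 monocyte markers were found in 1 responding cell and 15 cells with none. Lyz2, Csf1r, C1qa and Cd14 were at 0 in responding cells, and C1qb and Ccr2 had 1 UMI each. The 9099 cells with none had only 2 Csf1r, 3 C1qa and 29 Cd14 UMIs, so these values of 0 say little at this depth. The summed list was nevertheless 2.58-fold higher (2.03 to 3.23), with 80 UMIs in responding cells, of which 68 were Ly6c2 (2.81-fold) and 10 were Cd68 (1.98-fold, 0.934 to 3.71). Cycling markers were found in 3.40% of responding cells and 1.09% of cells with none, and after thinning in 0.694% and 0.327%. Barcodes with 2 TRB sequences, which can be doublets, were 7 of 70 responding cells with a TCR (10%), against 215 in cells with none (5.34%). The part of plasmacytoid, monocyte and cycling markers in the results was not tested.

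Beyond the rule, the responding cells carried a broad interferon signature. Of 8035 genes with at least 200 UMIs over both sides, 123 were at least 2-fold higher in responding cells (1.53%) and 460 at least 2-fold lower (5.72%), and the median fold over all of them was 0.963. Of 79 listed type I interferon genes outside the rule, 58 had 200 UMIs or more. Of these 58, 37 were at least 2-fold higher, 0 were at least 2-fold lower and 57 had a fold above 1. Their median fold was 2.41, and 2.38 when cells with none were weighted to the same depth. Without barcodes that had 2 TRB or at least 2 B cell markers other than Ighm, 134 responding cells remained and 37 genes of the list were past 2-fold. The whole list of 76 genes found in the matrix summed to 17641 CPM in responding cells and 10463 CPM in cells with none. Of the 123 genes, 59 were in the interferon-related lists, and of the 40 genes at least 3-fold higher, 33 were.

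Isg20 had the highest fold of the genes outside the rule with at least 200 UMIs. It encodes an exonuclease that degrades single-stranded RNA, and it was 12.2-fold higher (8.91 to 16.6), at 122 CPM in responding cells and 9.94 CPM in cells with none. It had a UMI in 32 of 147 responding cells (21.8%), with at most 8 in a cell, and in 154 of 9099 cells with none (1.69%), with at most 3. Rtp4, a chaperone of membrane receptors that is induced by interferon, was 9.96-fold higher (8.25 to 12.0), at 315 CPM in responding cells and 31.6 CPM in cells with none. It was found in 69 responding cells (46.9%) and in 469 cells with none (5.15%).

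Genes of antiviral enzymes and restriction factors followed. Cmpk2, a mitochondrial nucleotide kinase whose gene (chr12:26469117-26479837) stands beside Rsad2, was 7.64-fold higher (5.51 to 10.4), at 106 CPM in responding cells and 13.9 CPM in cells with none. Oas1a, which makes the activator of RNase L on sensing double-stranded RNA, was 7.15-fold higher (4.87 to 10.2). Bst2, which encodes tetherin, a protein that holds budding virions on the cell surface, stood at 417 CPM in responding cells and 75.1 CPM in cells with none, a fold of 5.55 (4.75 to 6.45). Bst2 was spread over 62 responding cells, the highest with 15 UMIs.

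The factor Irf7, which amplifies interferon production, was 5.35-fold higher (4.14 to 6.84), at 159 CPM in responding cells and 29.6 CPM in cells with none. Ifi27l2a had the most transcripts of the raised genes, with 1068 CPM in responding cells and 225 CPM in cells with none (4.74-fold, 4.31 to 5.20). It was detected in 63.3% of responding cells and 24.7% of cells with none, so its groups overlapped widely at the level of single cells. Xaf1, an interferon-induced promoter of cell death, was 4.71-fold higher (3.79 to 5.79). Rnf213, a giant ubiquitin ligase, was 6.14-fold higher (4.88 to 7.65) although it stood in none of the lists, and Gm12250, an immunity-related GTPase gene, 5.64-fold (4.24 to 7.38).

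Some of the best known interferon genes were too rare to pass the minimum of 200 UMIs, and most of those had large ratios. Mx1, a GTPase that blocks influenza virus in many mammals, had 17 UMIs in responding cells and 22 UMIs in the 9099 cells with none, which is 31.9-fold (15.9 to 62.9). Oasl2 had 12 UMIs in responding cells against 27 in cells with none (18.4-fold, 8.47 to 37.5), and Oasl1 had 11 against 27 (16.8-fold, 7.53 to 35.0). Against cells of the same TCR lineages, Oasl1 was at 2.65-fold, while Mx1 and Oasl2 were at 31.9-fold and 32.03-fold. Dhx58, the RNA helicase LGP2, was 9.72-fold higher (5.95 to 15.3) and Oas3 was 8.89-fold higher (5.69 to 13.5). Ifit2, a neighbour of the rule's Ifit genes, had 10 UMIs in responding cells and 180 in cells with none, a fold of 2.29 (1.08 to 4.32). Ifitm3 had 0 and 5 UMIs, so no fold is given.

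Other members of the list were nearly level. Ms4a4b, a tetraspan protein of T cells and the most abundant gene of the list, was at 5183 CPM in responding cells and 4601 CPM in cells with none (1.13-fold, 1.08 to 1.17). Because it makes up so much of the summed list, that sum is 1.69-fold higher while the median gene is 2.41-fold higher. Shisa5 was 1.21-fold higher (1.11 to 1.30), Ly6e 1.51-fold (1.38 to 1.66), Adar 1.94-fold (1.40 to 2.61) and Eif2ak2, the kinase PKR, 2.02-fold (1.16 to 3.28). Oas1c was the single gene of the 58 with a fold below 1, at 6 UMIs in responding cells and 272 in cells with none (0.911, 0.331 to 2.01).

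**Figure D1:**
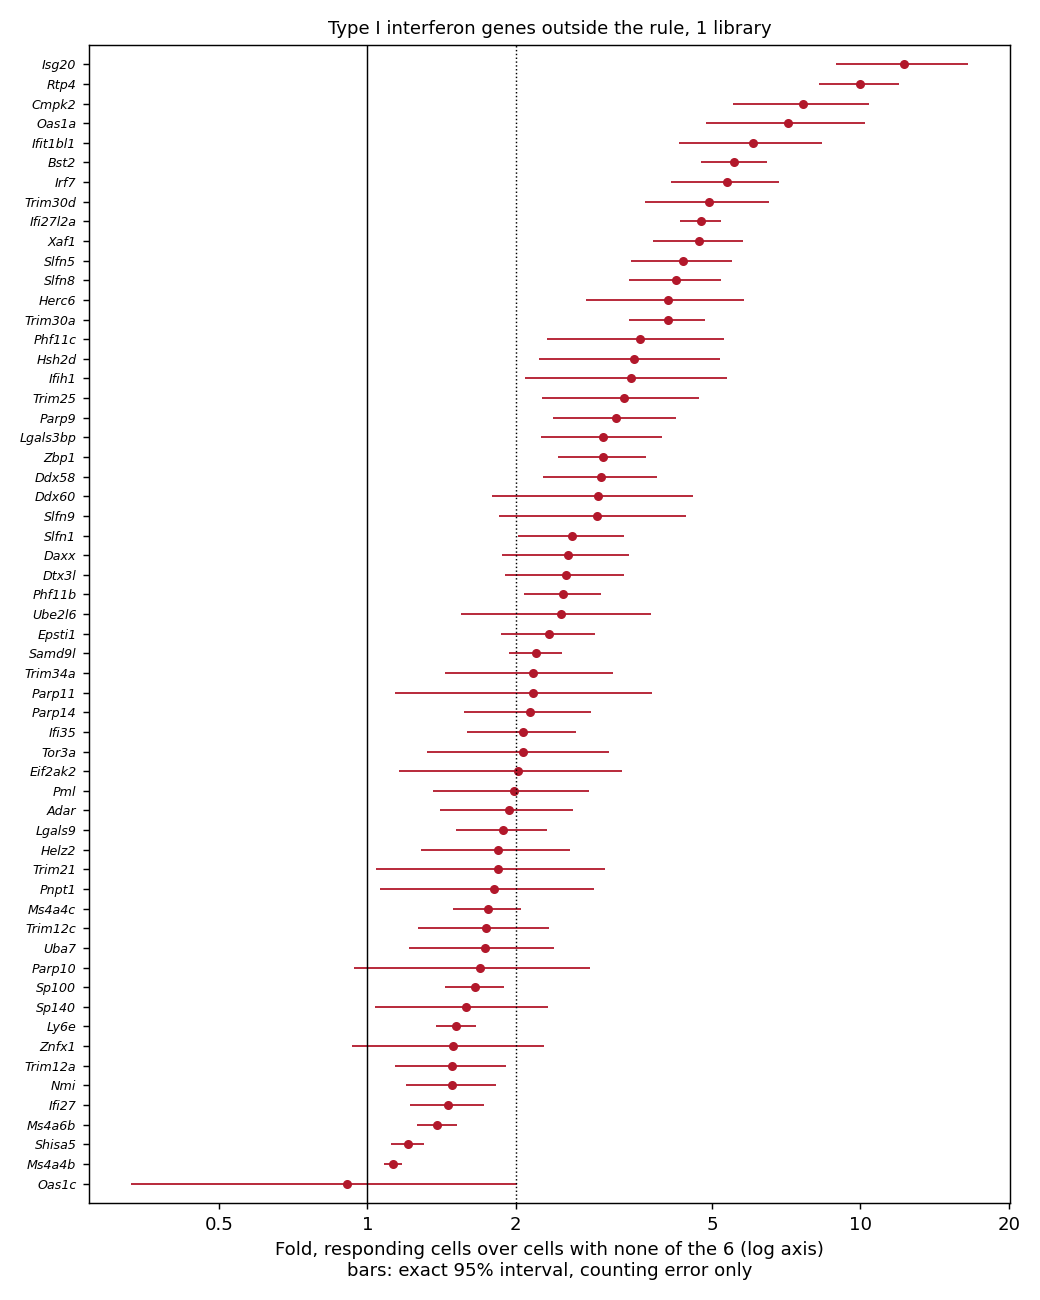
Fold of each of the 58 type I interferon genes with at least 200 UMIs, responding cells over cells with none of the 6, on a log axis; bars are exact 95% intervals for counting error and the dotted line marks 2-fold. Isg20 and Rtp4 stand highest at 12.2 and 9.96, and 37 of the 58 genes lie at 2 or above.

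Some of the raised genes fall into families that stand together in the genome, where copies are alike and reads may be shared between them. Of the p200 genes on chromosome 1 (chr1:173468485-173942866), which include sensors of DNA, 8 had 200 UMIs or more and 7 were at least 2-fold higher. Ifi213 was 5.13-fold higher (4.11 to 6.36), Ifi206 4.49-fold (3.83 to 5.25) and Ifi208 4.43-fold (3.56 to 5.44), while Mndal was at 1.92-fold (1.69 to 2.17). The DNA sensor Aim2 was not counted among these 8. It was at 45.8 CPM in cells with none of the rule genes. In cells with 2, 3 and 4 or more it was at 58.9, 73.3 and 0 CPM, from 20, 4 and 0 UMIs. Of 5 Schlafen genes on chromosome 11 (chr11:82951349-83122670), 4 were at least 2-fold higher, led by Slfn5 at 4.37-fold (3.43 to 5.50) and Slfn8 at 4.23-fold (3.40 to 5.22). On chromosome 7, 3 of 6 Trim genes were at least 2-fold higher. Trim30d was 4.93-fold higher (3.65 to 6.53) and Trim30a 4.07-fold (3.40 to 4.84), while their neighbour Trim12a was at 1.49-fold (1.14 to 1.91). Past 2-fold were also 2 of 2 Phf11 genes and 1 of 2 Oas genes. Of the guanylate-binding genes, 1 of 3 on chromosome 5 and 1 of 4 on chromosome 3 were.

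Most of the p200 genes counted were higher, and so were some sensors of nucleic acid outside them. Of the 14 sensor and p200 genes with 200 UMIs or more, 7 were at least 2-fold higher, and all of these were p200 genes. Outside that list, Ddx58, the cytosolic RNA sensor RIG-I, and Ifih1, its relative MDA5, were listed with the type I genes and were 2.98-fold (2.27 to 3.86) and 3.43-fold (2.09 to 5.35) higher. Zbp1, a sensor of Z-form nucleic acid, was 3.01-fold higher (2.44 to 3.67). Of the signalling genes behind these sensors, the adaptor Tmem173, which encodes STING, was at 0.802-fold (0.543 to 1.14), Mavs at 0.708-fold (0.322 to 1.35), the kinase Tbk1 at 1.05-fold (0.657 to 1.61) and Irf3 at 0.992-fold (0.712 to 1.35). The intervals of these 4 genes include 1.

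Among the parts of the interferon pathway itself, Stat2 and Irf9, which belong to ISGF3, were past 2-fold. Stat2 was at 63.0 CPM in responding cells and 25.4 CPM in cells with none (2.48-fold, 1.64 to 3.61). Irf9 was at 119 CPM in responding cells and 56.4 CPM in cells with none (2.12-fold, 1.58 to 2.78). Both were under 2-fold when the 51 responding cells that could be matched were set against cells of the same TCR lineages, at 1.47-fold and 1.23-fold. The receptor chains were near equal, with Ifnar1 at 1.04-fold (0.659 to 1.58) and Ifnar2 at 1.13-fold (0.786 to 1.58). The kinases Jak1 and Tyk2 were at 0.932-fold (0.841 to 1.03) and 1.10-fold (0.694 to 1.66). Of the feedback inhibitors, Socs1 was 1.36-fold higher (1.04 to 1.75) and Socs3 was at 0.690-fold (0.536 to 0.875), with 150 CPM in responding cells and 217 CPM in cells with none.

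Of the 21 listed genes of the interferons themselves, 3 were in the matrix. Ifng, the gene of interferon gamma, was the only ligand gene with 200 UMIs or more, at 109 CPM in responding cells and 104 CPM in cells with none (1.04-fold, 0.77 to 1.38). Of the type I ligand genes in the matrix, Ifnz had 1 UMI in responding cells and 1 in cells with none, and Ifna7 had 0 and 1. The other 18 ligand genes were not analysed here, so the level of most interferon transcripts was not measured. At this depth 3 UMIs in the responding cells correspond to 6.51 CPM.

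GTPase and interferon gamma response genes were higher as well. Of 30 listed genes, 19 had 200 UMIs or more, and 12 of them were at least 2-fold higher, 0 at least 2-fold lower and 19 above 1. Their median fold was 2.81, and the 27 genes in the matrix summed to 2971 CPM in responding cells and 1050 CPM in cells with none, a ratio of 2.83. For the type I list the median fold was 2.41 and the summed ratio 1.69. Whether type I interferon, interferon gamma or both acted on these cells was not tested. Ly6a, the gene of the stem cell antigen Sca-1, was at 469 CPM in responding cells and 110 CPM in cells with none (4.25-fold, 3.68 to 4.89). It was carried by 55 responding cells (37.4%), with up to 21 UMIs in a cell, and by 1083 cells with none (11.9%). Its level in cells with none differed by TCR lineage. It was 376 CPM in TRBV12-2+TRBV13-2 with TRBJ2-3, 322 CPM in TRBV17 with TRBJ1-1 and 30.1 CPM in the largest lineage. Against cells of the same TCR lineages, Ly6a was at 3.33-fold in the 51 responding cells that could be matched.

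Immunity-related GTPases act on the vacuoles of intracellular pathogens in mice. Of their genes on chromosome 11, 7 had 200 UMIs or more and 7 were at least 2-fold higher. Tgtp1 was 5.24-fold higher (3.72 to 7.21), Igtp 3.67-fold (3.08 to 4.35), Irgm1 3.02-fold (2.50 to 3.61), Tgtp2 2.97-fold (2.43 to 3.61) and Irgm2 2.68-fold (1.73 to 3.99). Tgtp1 and Tgtp2 are close copies, so the split between them is uncertain. Iigp1, a member on chromosome 18, was 4.21-fold higher (3.20 to 5.46). In the 51 matched responding cells, Iigp1 was at 2.29-fold against cells of the same TCR lineages. It had 12 UMIs in 14 responding cells of TRBV12-2+TRBV13-2 with TRBJ2-3, and 8 in 6 of TRBV17 with TRBJ1-1. It had 0 in 5 responding cells of the largest lineage and 0 in 31 of the remaining lineages, where the ratio intervals reach 39.3-fold and 2.13-fold. All responding cells together held 63 Iigp1 UMIs, and the others lay in cells that were not assigned to a TCR lineage. Guanylate-binding protein genes had smaller ratios, from Gbp9 at 3.15-fold (2.39 to 4.09) and Gbp7 at 2.37-fold (1.99 to 2.79) to Gbp2 at 1.98-fold (1.39 to 2.72) and Gbp5 at 1.49-fold (0.843 to 2.44). The rarer Gbp6 was 7.94-fold higher (4.96 to 12.3), from 25 UMIs in responding cells and 130 in cells with none. The master regulator of class I genes, Nlrc5, was at 1.34-fold (1.02 to 1.74).

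Genes of MHC class I presentation were slightly higher. Of 20 genes with 200 UMIs or more, 0 were past 2-fold, 18 had a fold above 1, and the median was 1.22. The nonclassical genes H2-T22 and H2-T23 were 1.65-fold (1.35 to 1.99) and 1.64-fold (1.48 to 1.82) higher. The immunoproteasome subunit Psmb9 was 1.5-fold higher (1.32 to 1.69) and the peptide transporter Tap1 1.40-fold (1.17 to 1.66). The abundant heavy chain genes H2-K1 and H2-D1 were 1.08-fold (1.04 to 1.13) and 1.06-fold (1.02 to 1.11) higher, and B2m, the common light chain, 1.12-fold (1.08 to 1.16). These shared-sequence genes are counted with the same uncertainty as other copies.

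Over all responding cells, most of the T cell state lists examined had medians near that of all genes, 0.963. Of all genes with 200 UMIs or more, 1.53% were at least 2-fold higher and 5.72% at least 2-fold lower. Counts near 0 in lists this short therefore say little. Of 15 memory and stemness genes, 0 were at least 2-fold higher and 1 was lower, with a median fold of 1.03. Tcf7, the factor of stem-like T cells, was at 651 CPM in responding cells and 630 CPM in cells with none (1.03-fold, 0.919 to 1.16). Satb1 was the lower gene, with 3 UMIs in responding cells and 365 in cells with none (0.339-fold, 0.0697 to 1.00). Of 8 inhibitory receptors 0 passed 2-fold either way, with Pdcd1 at 1.17-fold (1.00 to 1.35) and Lag3 at 1.02-fold (0.834 to 1.24).

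Of 16 effector and exhaustion factors, 0 were past 2-fold over all responding cells, with a median of 0.894. By number of rule genes the summed list was at 3272, 3188, 3163, 2601 and 2562 CPM in cells with 0, 1, 2, 3 and 4 or more, and the intervals of the last 2 classes (2191 to 3066 and 2192 to 2978) lie below the value at 0. Tox was at 706 CPM in responding cells and 644 CPM in cells with none (1.10-fold, 0.978 to 1.22), Batf at 0.875-fold (0.767 to 0.995) and Bhlhe40 at 0.688-fold (0.498 to 0.926). Of 14 cytotoxic and chemokine genes, 0 were at least 2-fold higher and 2 were lower. The lower ones, Gzma and Fasl, rested on 2 UMIs each in responding cells and their intervals include 1. In the 26 cells with 4 or more rule genes, the median fold was 0.602 for the effector and exhaustion factors. It was 0.136 for the cytotoxic and chemokine genes, 0.950 for the memory list and 0.850 over all tested genes, from few molecules per gene. Immediate early and heat shock genes had 0 of 17 past 2-fold and a median of 1.01. Of 16 survival and death genes, Casp4, the inflammatory caspase, was past 2-fold at 2.02 (1.43 to 2.78), and the death ligand Tnfsf10 was at 1.47-fold (1.06 to 1.98).

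The edited genes were measured in the same cells. Bcor was at 189 CPM in responding cells and 171 CPM in cells with none (1.11-fold), and Zc3h12a, which encodes the RNase Regnase-1, at 34.7 and 47.2 CPM (0.736-fold). These levels do not check the edits, since an edit need not remove a transcript.

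**Figure D2:**
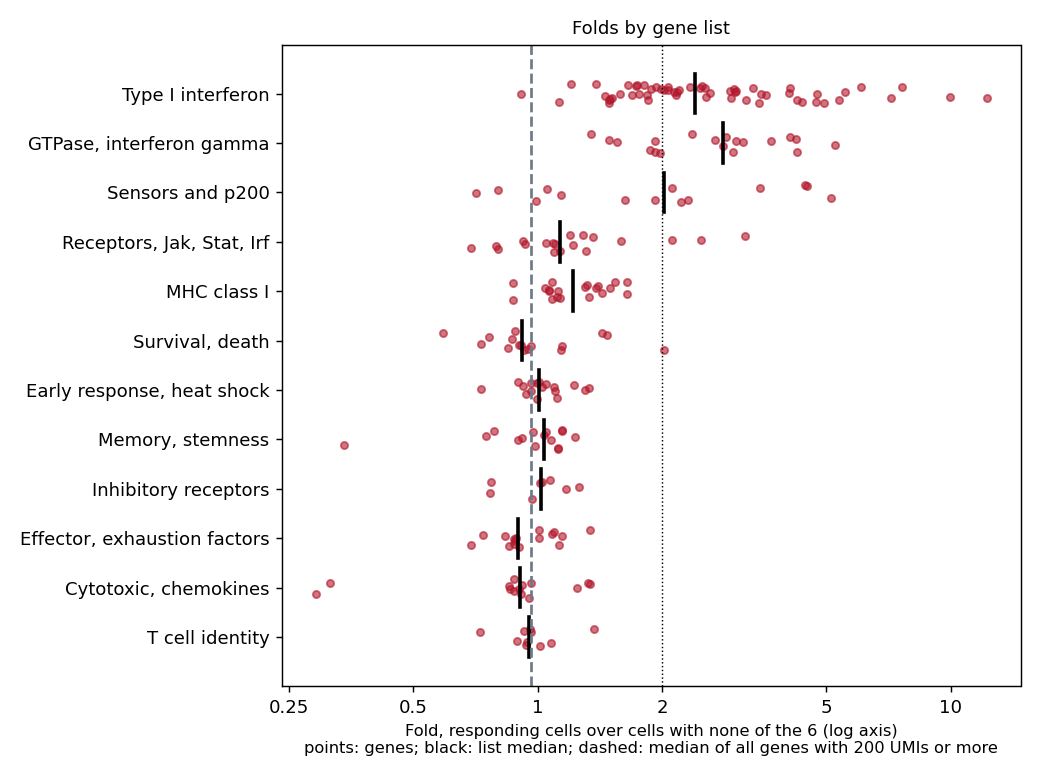
Folds of single genes (points) by list, responding cells over cells with none of the 6, for genes with at least 200 UMIs, on a log axis. The medians of the type I, GTPase and sensor lists are 2.41, 2.81 and 2.02. Those of the class I list and of the receptor, Jak, Stat and Irf list are 1.22 and 1.13. The remaining lists lie near the median of all genes, 0.963.

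Genes lower in responding cells were in part markers of other cells. Of the conventional dendritic cell markers with 200 UMIs or more, 3 of 4 were at least 2-fold lower (median 0.181), as were 4 of 4 erythroid and 2 of 4 B cell markers (median 0.467), against 5.72% of all genes. The dendritic cell list summed to 9 UMIs in responding cells and 2379 in cells with none (0.156-fold, 0.0713 to 0.297), and its 3 lower genes encode MHC class II chains (H2-Aa, H2-Ab1) and the chaperone Cd74, which are found in B cells as well. The 10 named genes with the lowest ratios had at most 3 UMIs in the responding cells. Cd74, the invariant chain of MHC class II, had 3 UMIs in responding cells against 1577 in cells with none, up to 152 of them in 1 cell. Its fold of 0.0786 was 0.526 without the haemoglobin barcode and cells with B cell markers, and 0.367 without cells with 2 TRB sequences or B cell markers. In the 51 matched responding cells it was 0.560 against cells of the same TCR lineages. Its 2-fold call was lost under the first and the last of these 3 settings. The haemoglobin genes Hbb-bs and Hba-a1 had 0 UMIs in responding cells, which against a floor of 3 UMIs over the responding cells is at least 9.95-fold and 8.90-fold lower. Of 3446 haemoglobin UMIs in the library 3138 (91.1%) lay in 1 barcode with none of the 6 genes, so these ratios describe that barcode. Gpatch4, Gm13212, Polg2, Cyb561d1, Nupl1_2 and Galk1 had 1 UMI each in responding cells.

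The signature was graded by how many of the 6 genes a cell showed. In cells with 0, 1, 2, 3 and 4 or more of them, the type I list summed to 10463, 11178, 14365, 19855 and 32587 CPM. Against cells with none, 0 of its 58 tested genes were past 2-fold in cells with exactly 1, where 0.00% of all tested genes were. In cells with exactly 2 there were 21 (1.80% of all), with 3 there were 42 (10.2%) and with 4 or more there were 50 (9.18%). The median fold of the list was 1.16, 1.76, 2.85 and 5.29 for 1, 2, 3 and 4 or more. Cells with exactly 1 of the 6 thus lay close to cells with none, and the 26 cells with 4 or more carried the largest excess.

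Single genes followed the same order with exceptions. Bst2 was at 75.1, 86.0, 218, 550 and 1326 CPM across the 5 classes, and Rtp4 at 31.6, 58.9, 215, 495 and 678 CPM. Xaf1 was at 46.6, 73.9, 150.2, 256 and 543 CPM. Isg20 was at 9.94, 14.6, 82.5, 55.0 and 377 CPM, where the value for 3 genes rests on 3 UMIs. Mx1 was at 1.16, 3.21, 5.89, 110 and 136 CPM, so its level was highest in cells with 3 or more. The last 2 values rest on 6 and 9 UMIs, and cells with none held 22. The kinase gene Jak1 was at 916, 895, 833, 824 and 980 CPM and showed no such order.

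**Figure D3:**
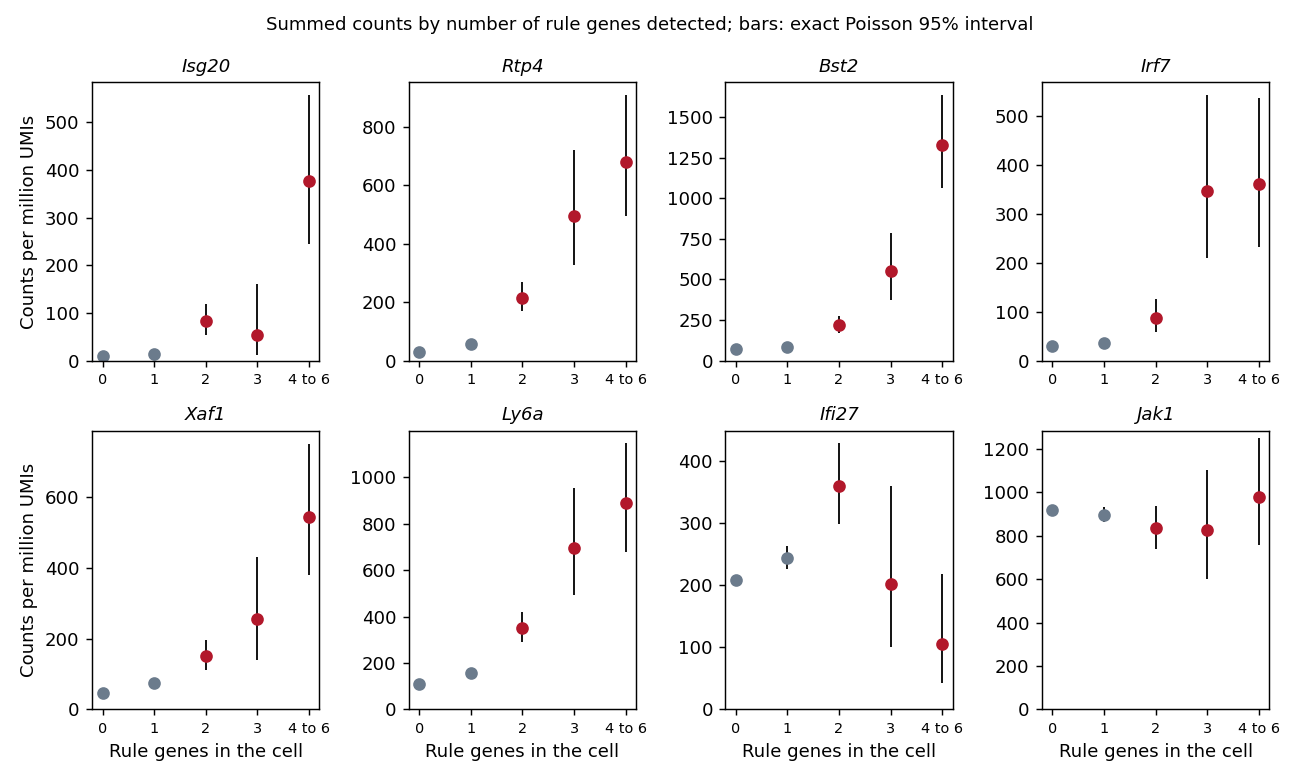
CPM of 8 genes by the number of rule genes with a UMI in the cell (0, 1, 2, 3, 4 to 6); grey points are cells outside the rule, red points responding cells, and bars exact Poisson 95% intervals. Bst2 reaches 1326 CPM in cells with 4 or more, Jak1 stays between 824 and 980 CPM, and Ifi27 is highest at exactly 2 (359 CPM).

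The GTPase list followed the same order. It summed to 1050, 1446, 2456, 3682 and 5019 CPM in cells with 0, 1, 2, 3 and 4 or more of the 6, with median folds of 1.34, 2.27, 3.17 and 4.67 in the last 4 classes. Already at exactly 2 genes, 11 of 19 were past 2-fold. Ly6a was at 110, 156, 350, 696 and 889 CPM. The class I list summed to 22930.0 CPM at 0 and 30703 CPM at 4 or more.

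Seen cell by cell, the type I list took a median of 1.71% of a responding cell's UMIs (5th to 95th percentile 0.837 to 3.86, highest 5.51), against 1.02% in cells with none (0.517 to 1.70). Of the 147 responding cells, 75 (51.0%) lay above the 95th percentile of cells with none. This was so for 35 of the 101 cells with exactly 2 genes (34.7%), 14 of the 20 with 3 (70%) and 26 of the 26 with 4 or more, whose lowest value was 2.08%. Of cells with exactly 1 gene, 89 (8.15%) lay above it. The other responding cells lay within the range that holds most cells with none. For the GTPase list the median was 0.254% in responding cells and 0.0665% in cells with none.

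**Figure D4:**
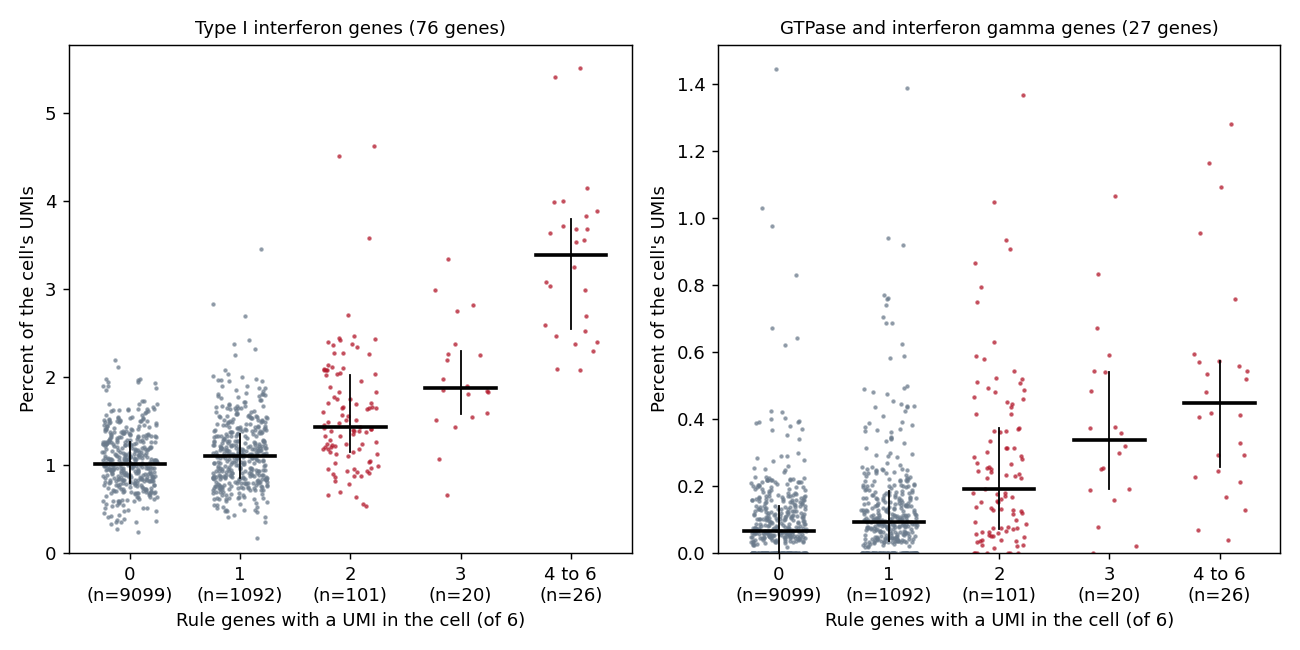
Percent of each cell's UMIs from the type I list (left) and the GTPase and interferon gamma list (right) by number of rule genes detected; black lines are medians with quartiles, grey points cells outside the rule (400 drawn at random for 0 and for 1), red points responding cells. All 26 cells with 4 or more lie above 2.08% or at it in the left panel, and cells with 2 overlap those with 0.

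The cells just inside the rule were not alike, and this depended on which 2 genes they showed. The 42 cells with Usp18 and Isg15 as their only rule genes had 12544 CPM from the type I list, and the 59 cells with another pair had 15835 CPM, against 10463 CPM in cells with none. Just outside it, cells with Usp18 alone (564 cells) had 11051 CPM, with Isg15 alone (298) 10670 CPM, with Ifit3 alone (109) 12377 CPM and with Ifit1 alone (74) 11936 CPM. Rtp4 was at 112 CPM in the Usp18 and Isg15 pair, at 298 CPM in the other pairs and at 126 CPM in cells with Ifit3 alone, against 31.6 CPM in cells with none. Cells with Ifit3 alone thus had as much of the list as cells with the commonest pair.

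Ccl5, a chemokine of effector and memory CD8 T cells, ran against the grading; it, Ly6c2 and Ifi27 were picked out after their values had been seen. In cells with 0, 1, 2, 3 and 4 or more of the 6, Ccl5 was at 1011, 1335, 1782, 165 and 45.2 CPM. The 26 cells with 4 or more held 3 Ccl5 UMIs in 2 cells (7.69% with a UMI), against 32.3% of cells with none. Of the 605 UMIs in cells with exactly 2, 529 lay in the 42 cells with Usp18 and Isg15, and 216 of these in 1 cell. Cells with another pair had 405 CPM. Over all responding cells Ccl5 was 1.32-fold higher (1.22 to 1.44). This ratio leans on the 1 cell with 216 UMIs, and the interval does not cover such a spread between cells.

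Ly6c2 and Ifi27 were also highest at exactly 2, with few molecules in the classes above. Ly6c2, a surface antigen of memory CD8 T cells and monocytes, was at 52.6, 82.1, 183, 55.0 and 45.2 CPM across the classes 0 to 4 or more, so its 2.81-fold excess over all responding cells (2.16 to 3.59) came from cells with exactly 2. Among those, 1 cell held 20 of its UMIs and another held 13. The values at 3 and at 4 or more rest on 3 UMIs in 1 cell each (11.3 to 161 and 9.32 to 132 CPM). Ifi27 was at 209, 245, 359, 201 and 106 CPM, the last 2 from 11 and 7 UMIs. Nkg7, a granule protein gene, was at 2429, 2665, 2450 and 1960 CPM for 0 to 3 genes and 2110 CPM for 4 or more. The whole cytotoxic and chemokine list summed to 5743, 6291, 6314, 4213 and 4130 CPM in that order.

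The responding cells were spread over T cell clones. A lineage here means cells with exactly 1 productive TCR beta chain (TRB) that share its CDR3 nucleotide sequence, and 3879 cells in 430 lineages could be placed. Of them 56 were responding cells (1.44%, 1.09 to 1.87), and they came from 27 lineages. The 9 placed cells with 4 or more of the 6 genes came from 6 lineages, with at most 3 in 1 lineage. Of the 19 lineages with at least 30 cells, 13 held a responding cell and 6 held none. Lineages under 30 cells together had 14 of 1014 (1.38%), and cells without a TCR barcode 77 of 5752 (1.34%).

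The shares of the large lineages differed. The largest, TRBV15 with TRBJ1-1, had 5 responding cells of 882 (0.567%, 0.184 to 1.32). The next, TRBV12-2+TRBV13-2 with TRBJ2-3, had 14 of 600 (2.33%, 1.28 to 3.88), and TRBV17 with TRBJ1-1 had 6 of 200 (3%, 1.11 to 6.42). The second of these is also the deepest of the 3, at a median of 2529.5 UMIs per cell against 2060 in the largest. Thinned to 1000 UMIs, the shares of these 3 lineages were 0.467%, 0.509% and 1.02%, from 4, 3 and 2 cells, so the order between the first 2 was not detectable at equal depth. Differences between lineages cannot be told apart from differences between mice, since the mice are not recorded.

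**Figure D5:**
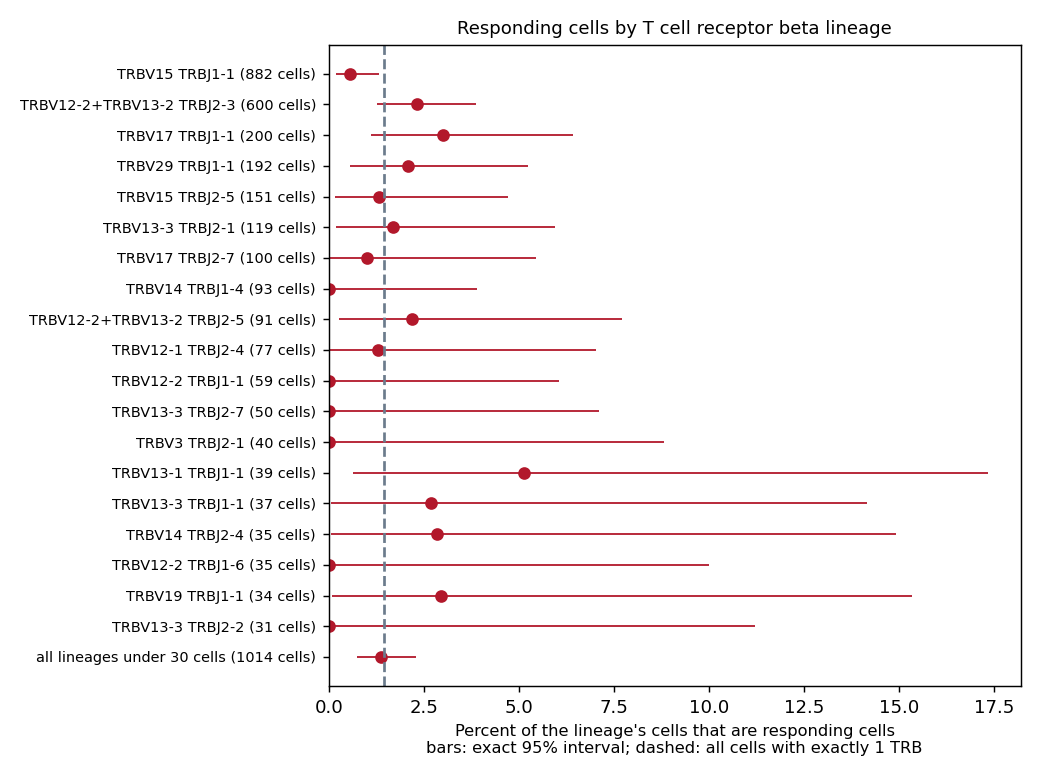
Percent of cells in each of the 19 TRB lineages of at least 30 cells, and in all smaller ones together, that are responding cells; bars are exact 95% intervals and the dashed line is the share over all placed cells, 1.44%. The largest lineage lies below the line at 0.567%, and every other interval shown includes the line.

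Within lineages the signature was seen in some and not in all. In the largest lineage the type I list was 2.40-fold higher in 5 responding cells than in 802 cells with none (2.13 to 2.69), and in the TRBV12-2+TRBV13-2 lineage 1.68-fold in 14 cells (1.58 to 1.80). In the TRBV17 lineage with TRBJ1-1 it was at 0.948-fold in 6 cells (0.827 to 1.08), with 11734 CPM in responding cells and 12381 CPM in cells with none. The GTPase list in that lineage was at 4363 CPM in responding cells and 2857 CPM in cells with none (1.53-fold, 1.21 to 1.90). Over all remaining lineages the type I list was 1.88-fold higher in 31 responding cells (1.79 to 1.97) and the GTPase list 2.86-fold (2.48 to 3.29). Exactly 1 of the 6 genes was found in 21.0% of cells of this TRBV17 lineage, against 11.2% of all placed cells.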

How the data were processed

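The authors deposited a matrix of raw UMI counts per gene and barcode and a table of assembled TCR contigs with a UMI count each. For reads, the notes on processing by the submitters (the submitters' processing notes) list featureCounts 2.0.1, STAR 2.6.1a and cutadapt 1.17, and the genome GRCm38, without roles; no TCR assembler is named in the sources at hand. Of 10387 barcodes, 49 failed the filter of at least 200 genes and under 20% mitochondrial UMIs. The shallowest barcode had 500 UMIs, and no barcode occurred more than once.

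Counts were summed over cells and divided by all UMIs outside the 6 genes (CPM). For CPM of the 6 genes themselves and percents of a cell's UMIs, the total held all UMIs. Intervals (95%) are exact: Clopper-Pearson for shares, Poisson for sums and conditional for ratios. Where a group had no count, a floor of 3 counts over that group was used. A gene counts as higher or lower past 2-fold. The arithmetic of ratios and their intervals was checked on simulated Poisson sums, which hold no single cells and no choice by the 6 genes. The members and lists were chosen with earlier results of these data known. Genes are named if they are in a list, or among the 20 highest and 10 lowest ratios with at least 200 UMIs, a fold of at least 1.5 and an interval that leaves out 1. Receptor and immunoglobulin segments and genes carried mostly by 1 cell were left out. Thinning drew 1000 UMIs per cell and left out 882 shallower cells, 3 of them responding. Alternatives changed the number of rule genes, the depth, the filters, the comparison cells and single rule genes. Work used python 3.11.15, numpy 2.4.6, scipy 1.17.1 and pandas 2.3.3. Promoters are from RefSeq. A few genes of the lists are not reported here.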

Additional observations from a re-analysis of the deposited data

How the results depend on the processing

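The number of responding cells followed the rule: 46 with at least 3 of the 6, 1239 with at least 1, 51 after thinning, 108, 84 and 75 with Ifit3, Usp18 or Isg15 left out of the rule, and 105 without cells that had Usp18 and Isg15 only. Counts of genes at least 2-fold higher and lower moved with the number of molecules on the chosen side. They were 472 and 1569 with at least 3, 11 and 13 with at least 1, and 429 and 1229 after thinning. With comparison cells weighted by TRB lineage they were 431 and 1281, from the 51 responding cells that could be matched. With a minimum of 50 UMIs they were 342 and 1186, and with 500 UMIs 56 and 110. With Usp18 left out they were 271 and 966, with Isg15 left out 298 and 1071, and without cells that had Usp18 and Isg15 only 198 and 718; with Ifit3 left out 701 genes were lower. The type I list gave 6 genes past 2-fold with at least 1 of the 6 and 23 with a minimum of 500 UMIs, and its median fold was 1.34 with at least 1 and 4.42 with at least 3. The GTPase list gave 2 genes and a median of 1.54 with at least 1. Hba-a2 turned to 1.52 without the haemoglobin barcode and B cell markers, and Nupl1_2 and Galk1 stood at 1.00 and 1.03 with at least 1 of the 6. The 20 raised genes named by size were picked for large ratios in these same cells, so staying above 1 was largely fixed beforehand. Their 400 values over 20 settings ran from 1.52 to 23.3, and 11 of the 400 were under 2, all with at least 1 of the 6. The minima of 50 and 500 UMIs do not change the ratio of a gene, so those values repeat the main ones. With comparison cells weighted by TRB lineage, Iigp1 was at 2.29, Rnf213 at 3.25 and Ifit1bl1 at 3.76. No paired analysis was possible because the series has 1 library of each kind. Leaving out the haemoglobin and B cell barcodes and the Usp18 and Isg15 cells was chosen after seeing the data. Intervals leave out the spread between mice and libraries, which 1 library does not show, and a gene near the minimum of 200 UMIs can pass 2-fold lower on a few molecules.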
